A study of Mus musculus with 6 samples.

Results

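The Notch pathway was followed here through 8 genes in basal cells of mouse epidermis: the receptors Notch1, Notch2 and Notch3, the ligands Jag1, Jag2 and Dll1, and the target genes Hes1 and Hey1. All probe sets that the platform annotation assigns to 1 of these genes alone were taken, which gave 8 of 18193 named genes and 14 of 45037 probe sets on the array, controls left out. The cells were α6-integrin-positive, propidium iodide-negative cells sorted from trypsinized skin of C57BL/6 females that were 10 weeks old, and their RNA was measured on 6 Affymetrix 3′ arrays. The 3 groups of 2 arrays were ventral skin of virgins and, at 16 days post coitum (dpc), dorsal skin and ventral skin, named 16 dpc dorsal and 16 dpc ventral here, so both 16 dpc groups came from pregnant mice and the virgin group from mice that were not. The comparisons ask whether basal cells of the abdominal skin, which expands in pregnancy, differ from those before pregnancy and from those of the back at the same day. No virgin dorsal cells were analysed here, α6-integrin also marks basal cells of the hair follicle, and no label says that the arrays of a group came from separate animals, so p-values measure only the spread between these samples.

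Notch receptors are cut by Adam10 and then by γ-secretase once a Jagged or Delta ligand on a neighbouring cell binds, and the freed intracellular domain joins the DNA-binding protein Rbpj to switch on targets such as the Hes and Hey repressors. In the epidermis the pathway is known for driving basal keratinocytes out of the cycle and into the suprabasal, differentiating layers, with Notch1 as the best studied receptor. The arrays were read as signals in arbitrary units with a detection call of present, marginal or absent for each probe set.

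All 8 basal keratinocyte markers, Krt5 and Krt14 among them, were called present on all 6 arrays, and so were all 8 suprabasal markers. Suprabasal signals summed to 132669 and 131967 in virgin ventral, 111070 and 134331 in 16 dpc dorsal, and 108991 and 120457 in 16 dpc ventral. The suprabasal Krt10 gave 34930 to 50770 and was above Krt5, at 30170 to 44870, on every array. Over virgin ventral cells, 1 of the 8 suprabasal markers had a higher mean at each 16 dpc site. Their median log2 fold change was -0.32 in 16 dpc ventral and -0.27 in 16 dpc dorsal cells, beside 0.02 and 0.07 over all genes. Between 47.2% and 53.3% of probe sets were called present per array, with a median signal of 61.1 to 78.9. Of the 8 endothelial markers, 6 were absent on every array (Pecam1, Cdh5, Kdr, Tek, Cldn5 and Flt1), as were 4 of 7 fibroblast markers (Col1a2, Pdgfra, Lum and Dpt). Summed signals of mammary luminal markers were 725 and 1304 in virgin ventral, 356 and 554 in 16 dpc dorsal and 6717 and 872 in 16 dpc ventral cells. The highest sum was carried by the milk protein gene Csn2, at 6185 on that array, while Krt8, Krt18 and Krt19 were highest on virgin array 2, at 474.2, 413 and 282. Of 6 T cell markers, Cd3e, Cd3d and Cd247 were absent on every array, and Cd3g ranged from 80.94 to 188.4 over all arrays. Ptprc gave 123.9 and 91.24 in virgin ventral cells and was higher on all arrays of pregnant mice, at 156.3 to 238. Only Thy1 differed between all 3 groups without overlap. It gave 402.4 and 456.6 in virgin ventral, 1347 and 2235 in 16 dpc dorsal, and 3086 and 4216 in 16 dpc ventral cells. Summed signals of 8 Langerhans and antigen-presenting cell markers were 6597 to 7338, 9548 to 10533 and 7866 to 10480 in the same order of groups, lowest in the virgin group. The part of these cells in the values given here was not tested. The arrays also differed in RNA quality. The signal ratio of the 3′ over the 5′ end of actin, which grows as RNA is degraded or shortened, was 4.47 on 16 dpc dorsal array 2 and 3.90 on 16 dpc ventral array 2 against 1.78 to 2.46 on the other arrays.

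Transcripts of 7 of the 8 genes were detected in all 3 groups, and Hey1 was absent on every array. The 11 probe sets kept for testing, out of 23017, had to have both arrays of a group present in 1 or more groups, and each of them was in fact present on all 6 arrays. In 16 dpc ventral cells compared with virgin ventral cells, the means of all 3 receptors and of Jag1 were lower by their leading probe set, the one of highest mean signal, while those of Jag2, Dll1 and Hes1 were slightly higher. None of these differences passed the test. The 95% intervals of all 7 leading probe sets in that comparison lay within 2-fold of no difference.

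**Figure D1:**
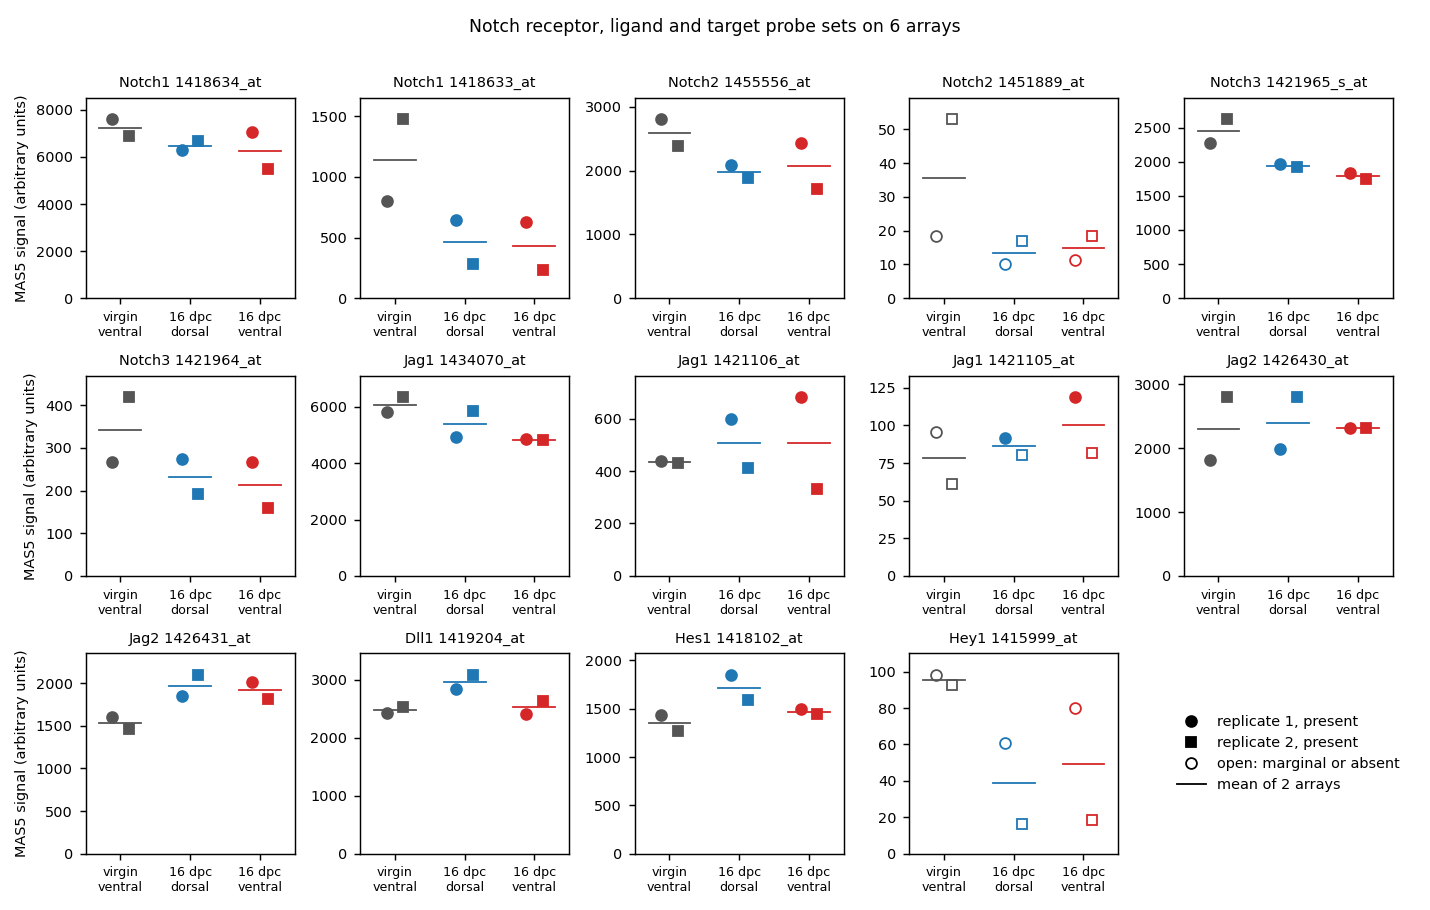
Signal of each of the 14 Notch probe sets (vertical axis, MAS5 signal in arbitrary units from 0, each panel with its own scale) on 6 arrays in 3 groups. Filled symbols were called present, open ones marginal or absent, and bars are means of 2 arrays. Both Notch3 probe sets and Notch1 1418633_at had their highest mean in virgin ventral cells, and the Notch2 1451889_at and Hey1 signals were open on all 6 arrays.

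The receptors come first. The sequences before their start sites are shown because the leading probe set of each had a lower mean at both 16 dpc sites than in virgin cells, which among the other genes was so for Jag1 alone. These are the 250 bases before the annotated start in the RefSeq table of GRCm38.p6, at chr2:26503823-26504072 on the minus strand for Notch1, chr3:98013288-98013537 on the plus strand for Notch2 and chr17:32166891-32167140 on the minus strand for Notch3, each written 5′ to 3′. Capitals mark the N box CACNAG, the letters that Hes repressors are known to bind, or its complement CTNGTG.
Notch1: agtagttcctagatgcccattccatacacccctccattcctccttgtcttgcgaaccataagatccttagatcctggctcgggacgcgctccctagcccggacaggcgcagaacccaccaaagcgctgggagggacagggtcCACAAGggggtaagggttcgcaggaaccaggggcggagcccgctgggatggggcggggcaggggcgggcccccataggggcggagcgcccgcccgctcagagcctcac
Notch2: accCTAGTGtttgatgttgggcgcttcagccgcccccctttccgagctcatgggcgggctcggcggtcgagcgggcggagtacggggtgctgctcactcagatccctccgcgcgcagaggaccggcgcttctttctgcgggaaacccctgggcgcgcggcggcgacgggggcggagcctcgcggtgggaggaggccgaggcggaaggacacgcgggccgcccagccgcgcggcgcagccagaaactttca
Notch3: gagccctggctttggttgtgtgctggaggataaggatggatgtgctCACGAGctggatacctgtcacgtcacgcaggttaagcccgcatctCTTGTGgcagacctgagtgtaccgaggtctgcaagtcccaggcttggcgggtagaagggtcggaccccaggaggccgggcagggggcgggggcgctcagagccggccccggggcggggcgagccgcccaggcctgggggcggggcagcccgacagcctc
The N box occurred 1 time in the Notch1 window, 1 time in that of Notch2 and 2 times in that of Notch3. It was in 0 of the 4 windows of the ligands Jag1, Jag2 and Dll1, the last with 2 start sites. Thus 3 of the 7 windows of receptors and ligands held it, beside 36.7% of all 32851 windows of this length. Any link between the N box and the signals was not tested. The Rbpj core TGGGAA, searched on both strands as TGGGAA and TTCCCA, was in 0 of these 7 windows and in 21.6% of all windows. No window of the target genes Hes1 and Hey1 was available, so neither motif was searched there. A match or its lack describes these letters and not a bound factor.

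Notch1, the receptor tied to keratinocyte differentiation, was measured by 2 probe sets. The leading one, 1418634_at, gave 7595 and 6884 in virgin ventral cells, 6300 and 6671 in 16 dpc dorsal cells, and 7054 and 5483 in 16 dpc ventral cells. The 16 dpc ventral arrays lay on both sides of the lower virgin array, and the 16 dpc dorsal arrays were both below the virgin ones. Its log2 fold change in 16 dpc ventral over virgin ventral cells was -0.22 (95% interval -0.61 to 0.18, limma adjusted p = 0.678), and that in 16 dpc ventral over 16 dpc dorsal cells was -0.06 (-0.46 to 0.34, adjusted p = 1).

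The other Notch1 probe set, 1418633_at, had the widest difference of all Notch probe sets. Its signals were 804.4 and 1474 in virgin ventral, 646.6 and 279.8 in 16 dpc dorsal and 625.6 and 235.2 in 16 dpc ventral cells. Both virgin arrays were above all 4 arrays of pregnant mice, and the lowest signals were those of array 2 at either 16 dpc site. The log2 fold change was -1.51 in 16 dpc ventral over virgin ventral cells (-2.86 to -0.15, unadjusted p = 0.0337, limma adjusted p = 0.549) and -1.36 in 16 dpc dorsal over virgin ventral cells (-2.71 to -0.004, adjusted p = 0.7).

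The size of this difference depended on which arrays were set against each other. Virgin arrays did not deviate together with 16 dpc arrays of the same number, so matching them by number is arbitrary. Between arrays numbered 1 the log2 difference of 1418633_at was -0.363 for 16 dpc ventral and -0.315 for 16 dpc dorsal over virgin ventral cells, and between arrays numbered 2 it was -2.648 and -2.397. The 2 arrays with the lowest signals were the 2 with actin 3′/5′ ratios of 4.47 and 3.90, while among the 4 other arrays the signals did not follow the ratio, with 625.6 at 1.78 and 804.4 at 2.46. The part of RNA quality in the result was not tested. Among the 11 kept Notch probe sets, 4 had their lowest signals on these 2 arrays (Notch1 1418633_at, Notch2 1455556_at, Notch3 1421964_at and Jag1 1421106_at), against 3792 of all 23017 kept probe sets. Markers of hair follicle cells, 4 of 12 of which were present on all arrays, also had their highest sum on virgin array 2 and their lowest on 16 dpc ventral array 2. The summed signal was 14067 and 27223 in virgin ventral, 18975 and 11432 in 16 dpc dorsal and 18195 and 7051 in 16 dpc ventral cells, with Krt71 and Shh absent throughout. Krt79 and Krt17 made up most of it, while Lgr5, Cd34, Lhx2 and Sox9 were lowest on 16 dpc dorsal array 2 and Msx2 was highest on 16 dpc ventral array 2, and their part in the result was not tested. In bulk RNA of this kind, fewer cells that express a gene and less RNA per cell cannot be told apart.

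**Figure D2:**
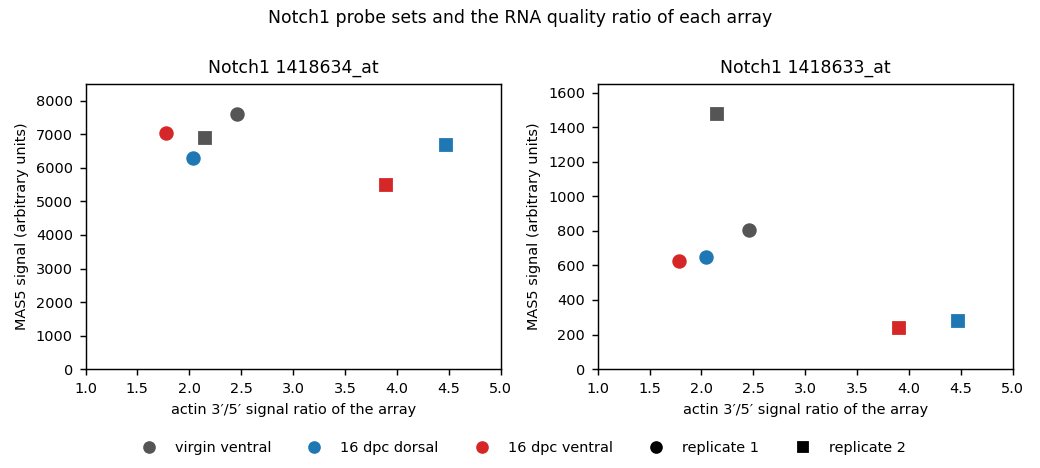
Signal of the 2 Notch1 probe sets (vertical axis, MAS5 signal in arbitrary units) against the actin 3′/5′ signal ratio of each array (horizontal axis), 1 point per array. The 2 arrays with ratios of 3.90 and 4.47 held the lowest signals of 1418633_at, 235.2 and 279.8, while for 1418634_at they stood at 5483, the lowest of all 6, and at 6671.

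Notch2 is another receptor of epidermal keratinocytes. Probe set 1455556_at gave 2802 and 2379 in virgin ventral, 2086 and 1878 in 16 dpc dorsal, and 2436 and 1717 in 16 dpc ventral cells. The virgin arrays were both above the dorsal ones, and the ventral arrays at 16 dpc overlapped with both other groups. The log2 fold changes were -0.34 (-0.82 to 0.15, limma adjusted p = 0.614) in 16 dpc ventral over virgin ventral cells and 0.05 (-0.44 to 0.53) in 16 dpc ventral over 16 dpc dorsal cells. The second Notch2 probe set, 1451889_at, was absent on all 6 arrays with signals of 10.05 to 52.95 and was not tested.

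Notch3, a receptor also well known in the cells around blood vessels, was the leading probe set with the smallest p. Probe set 1421965_s_at gave 2272 and 2619 in virgin ventral, 1963 and 1917 in 16 dpc dorsal, and 1830 and 1739 in 16 dpc ventral cells. The 3 groups did not overlap, with virgin cells highest and 16 dpc ventral cells lowest. Its mean was 2446 ± 245 (SD, n = 2) in virgin ventral and 1784 ± 64.3 (n = 2) in 16 dpc ventral cells, 1.37-fold lower (log2 -0.45, -0.81 to -0.10, unadjusted p = 0.0195, limma adjusted p = 0.523). In 16 dpc dorsal over virgin ventral cells the log2 fold change was -0.33 (-0.69 to 0.02, adjusted p = 0.7).

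At 1421965_s_at the difference in 16 dpc ventral over virgin ventral cells was -0.313 between arrays numbered 1 and -0.591 between arrays numbered 2. Matching by number is arbitrary between virgin and 16 dpc arrays. With no overlap of the groups, the sign is the same however arrays are matched. The arrays numbered 1 all had actin ratios of 2.46 or lower, and the part of RNA quality in the Notch3 values was not tested. The second Notch3 probe set, 1421964_at, gave 267.3 and 418.8, then 273.6 and 191.1, then 266.7 and 159.5 in the same order of groups. Here the arrays numbered 1 were nearly level, with a log2 difference of -0.003 in 16 dpc ventral over virgin ventral cells, and those numbered 2 differed by -1.393. Its log2 fold change was -0.70 (-1.57 to 0.17, limma adjusted p = 0.582).

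Of 8 markers of pericytes and smooth muscle, 2 were present on all arrays, and Pdgfrb, Des, Myh11 and Kcnj8 were absent on every one. Their summed signal was 807 and 1888 in virgin ventral, 623 and 783 in 16 dpc dorsal, and 1088 and 1227 in 16 dpc ventral cells. The 16 dpc ventral sums thus lay between the virgin ones, and the virgin array with the higher sum also had the higher Notch3 signal. Their part in the Notch3 values was not tested.

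Among the ligands, Jag1, a Jagged ligand of basal and follicle keratinocytes, had the lowest means at 16 dpc relative to virgin cells by its leading probe set. Probe set 1434070_at gave 5813 and 6348 in virgin ventral, 4923 and 5841 in 16 dpc dorsal, and 4848 and 4827 in 16 dpc ventral cells. Both 16 dpc ventral arrays were below every array of the other groups. The log2 fold change was -0.33 over virgin ventral cells (-0.68 to 0.03, limma adjusted p = 0.554) and -0.15 over 16 dpc dorsal cells (-0.50 to 0.21, adjusted p = 1).

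The second Jag1 probe set did not show the same direction. Probe set 1421106_at gave 437.9 and 431.5 in virgin ventral, 599.5 and 412.8 in 16 dpc dorsal, and 682 and 333.1 in 16 dpc ventral cells, with a log2 fold change of 0.13 over virgin ventral cells (-0.72 to 0.98, limma adjusted p = 0.92). The 16 dpc ventral arrays lay above and below both virgin arrays. The third Jag1 probe set, 1421105_at, was present on 2 arrays of different groups, had signals of 60.88 to 118.8 and was not tested.

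Jag2, the other Jagged ligand, was measured by 2 kept probe sets that overlapped in different ways. The leading one, 1426430_at, gave 1809 and 2796 in virgin ventral, 1991 and 2797 in 16 dpc dorsal, and 2309 and 2320 in 16 dpc ventral cells. The groups overlapped throughout, and the log2 fold change in 16 dpc ventral over virgin ventral cells was 0.04 (-0.55 to 0.64). Probe set 1426431_at gave 1599 and 1468, 1847 and 2097, and 2019 and 1818 in the same order. All 4 arrays of pregnant mice were above both virgin arrays, with log2 fold changes of 0.32 (-0.05 to 0.69, limma adjusted p = 0.568) in 16 dpc ventral and 0.36 (-0.01 to 0.73, adjusted p = 0.7) in 16 dpc dorsal over virgin ventral cells.

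Dll1, the Delta ligand of this set, gave 2421 and 2532 in virgin ventral, 2851 and 3086 in 16 dpc dorsal, and 2414 and 2641 in 16 dpc ventral cells. The dorsal arrays were above the other 4, which overlapped. In 16 dpc ventral over virgin ventral cells its log2 fold change was 0.03 (-0.31 to 0.37, limma adjusted p = 0.961), so a change of more than 1.29-fold upward lay outside the interval. In 16 dpc ventral over 16 dpc dorsal cells it was -0.23 (-0.57 to 0.11, adjusted p = 1), and in 16 dpc dorsal over virgin ventral cells 0.26 (-0.08 to 0.60, adjusted p = 0.7).

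Hes1, a repressor that Notch switches on in suprabasal cells, had its highest signals on the back. Probe set 1418102_at gave 1433 and 1264 in virgin ventral, 1849 and 1586 in 16 dpc dorsal, and 1492 and 1448 in 16 dpc ventral cells. The 3 groups did not overlap, with 16 dpc ventral cells between the others. The log2 fold change was 0.13 (-0.26 to 0.51, limma adjusted p = 0.805) in 16 dpc ventral over virgin ventral cells, 0.35 (-0.04 to 0.73, adjusted p = 0.7) in 16 dpc dorsal over virgin ventral cells, and -0.22 (-0.60 to 0.16, adjusted p = 1) in 16 dpc ventral over 16 dpc dorsal cells.

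Hey1, the related repressor, was absent on all 6 arrays, with signals of 98.21 and 92.72, 60.97 and 16.58, and 79.96 and 18.46 in the same order of groups. Signals called absent carry no order between groups, and no fold is given.

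**Figure D3:**
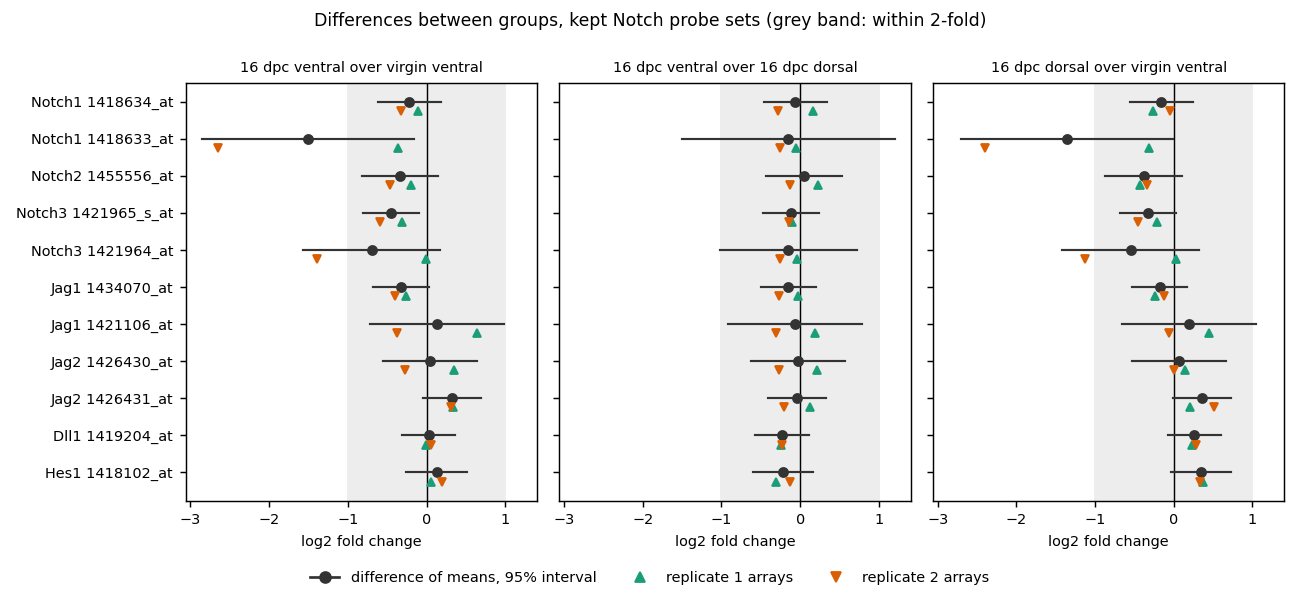
Log2 fold changes (horizontal axis) of the 11 kept Notch probe sets in the 3 comparisons, with 95% intervals from limma. Triangles give the difference between arrays of the same number, and the grey band spans 2-fold in either direction. Notch1 1418633_at stood out with -1.51 and -1.36 over virgin ventral cells, and its replicate 2 arrays lay far to the left of its replicate 1 arrays.

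Across the 11 kept probe sets, none passed the adjusted threshold in 16 dpc ventral over virgin ventral cells, where limma called 0% of all 23017 probe sets. At an unadjusted p under 0.05 there were 2 (Notch1 1418633_at and Notch3 1421965_s_at), beside 8.98% of all probe sets. Without overlap of the groups, 4 were lower (both Notch3 probe sets, Notch1 1418633_at and Jag1 1434070_at), beside 23.4% of all, and 2 were higher (Jag2 1426431_at and Hes1), beside 20.2%. The interval lay within 2-fold of no difference for 9 of the 11, beside 56.2% of all. The median log2 fold change of the Notch probe sets was -0.22, and that of all probe sets was -0.03.

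In 16 dpc ventral over 16 dpc dorsal cells, which share the ventral arrays with the first comparison, limma called 0 Notch probe sets and 1 of all probe sets (0.00434%), that of Tbx3. At an unadjusted p under 0.05 there were 0 Notch probe sets, beside 3.38% of all. Lower without overlap were 4, the leading probe sets of Notch3, Jag1, Dll1 and Hes1, beside 17.7% of all, and higher were 0, beside 12.2%. The interval lay within 2-fold for 9 of 11, beside 60.9%. Means were lower for 10 of the 11, which cover 7 genes, beside 6309 of all 11159 genes by leading probe set. Jag2 was nearly level, at -0.03 and -0.04 by its 2 probe sets. The median was -0.12, against -0.03 over all probe sets.

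In 16 dpc dorsal over virgin ventral cells, which share arrays with both other comparisons and differ in both site and pregnancy, limma called 0 of 11 (0% of all). At an unadjusted p under 0.05 there was 1, Notch1 1418633_at, beside 6.43% of all. Lower without overlap were 4 (both Notch1 probe sets, Notch2 and Notch3 1421965_s_at), beside 19.7%, and higher were 3 (Jag2 1426431_at, Dll1 and Hes1), beside 20.6%. The interval lay within 2-fold for 8 of 11, beside 58.4%. The median was -0.16, against 0.03 over all probe sets.

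Patterns over the 3 groups were counted as well. The study searched for genes whose expression in 16 dpc ventral cells was above both other groups by over 2-fold, and 0 of the 11 Notch probe sets had such means, beside 0.426% of all. Lower than virgin ventral cells without overlap at both 16 dpc sites were 2, Notch1 1418633_at and Notch3 1421965_s_at, beside 12.5% of all.

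The rest of the pathway was read through 88 further genes, 1 probe set each, of which 82 were analysed here and 68 were kept. Limma called 0 of the 68 in each of the 3 comparisons. At an unadjusted p under 0.05 there were 7 in 16 dpc ventral over virgin ventral cells, beside 1095 of 11159 genes, and 6 in 16 dpc ventral over 16 dpc dorsal cells, beside 475. Means were higher for 33 and lower for 35 in the first comparison, beside 5901 and 5258 of all genes. The median log2 fold change was -0.04 against 0.02 over all genes. In the second they were higher for 24 and lower for 44, beside 4850 and 6309, with a median of -0.08 against -0.03. Some of the lower genes were kept only through a group where their signal was high, so their direction was not independent of the filter. Among these were Dtx1 and Neurl1a, present on the dorsal arrays alone, and Runx1, present on both arrays only in the virgin group.

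Several partners were not detected. Of the other receptor and ligands, Notch4 was present on at most 1 array and Dll4 on none. Of the remaining Hes and Hey family, Hes2, Hes3, Hes7, Hey2, Heyl and Bhlhe41 were present on no array and Hes5 on at most 2, which left Hes6 and Bhlhe40 as kept genes. Their log2 fold changes over virgin ventral cells were 0.08 (-0.37 to 0.53) and 0.04 (-0.57 to 0.66), and those over 16 dpc dorsal cells 0.30 (-0.15 to 0.75) and -0.04 (-0.66 to 0.58). Of the ligands, the kept Dll3, a Delta-like protein that does not activate receptors, had a log2 fold change of 0.74 over virgin ventral cells (-0.49 to 1.96). Its signals were low, at 24.72 to 67.75, beside array medians of 61.1 to 78.9. Dlk2 and Dlk1, related proteins without the full ligand domain, had 0.19 (-0.43 to 0.80) and 0.27 (-0.75 to 1.29). A second Dlk2 probe set had 0.02. Dlk1 was also low, at 46.39 to 73.48, and was called absent on 16 dpc dorsal array 1.

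None of the enzymes that modify and cut the receptors passed the test. Of 4 kept glycosylation genes, 3 had higher means over virgin ventral cells, led by the O-glucosyltransferase Poglut1 at 0.39 (-0.05 to 0.84), with the fucosyltransferase Pofut1 at 0.15 (-0.29 by its second probe set) and the Fringe enzyme Rfng at 0.25. Of 8 kept cleavage genes, 7 had lower means over virgin ventral cells (median -0.31), beside 5258 of all 11159 genes (median 0.02). Furin, the protease that cuts the receptor on its way to the surface, gave 796.5 and 895.7 in virgin ventral, 667 and 726.7 in 16 dpc dorsal, and 644.8 and 565 in 16 dpc ventral cells, without overlap between the groups (log2 -0.48 over virgin ventral cells, -0.91 to -0.06, unadjusted p = 0.0315, limma adjusted p = 0.546).

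Psenen, a subunit of γ-secretase, gave 5402 and 4863, 7197 and 6007, and 4288 and 5218 in the same order of groups. The dorsal arrays were the highest, and its log2 fold change in 16 dpc ventral over 16 dpc dorsal cells was -0.48 (-0.88 to -0.07, unadjusted p = 0.0269, limma adjusted p = 1). Aph1b and Aph1a, other subunits, had -0.83 (-1.87 to 0.21) and -0.13 over virgin ventral cells and -0.03 and -0.26 over 16 dpc dorsal cells. Aph1b was lowest on the 2 arrays of high actin ratio, at 507.6 and 489.5 against 1046 to 1441 on the others. Psen2 and Ncstn, 2 further subunits, are named here after their values were seen. Psen2 was lowest on the same 2 arrays, at 112.8 and 127.2 against 229.3 to 297.2. Ncstn was lowest on the arrays numbered 1 of both 16 dpc sites, at 118.2 and 137.2. All of these count among the 7 cleavage genes with lower means over virgin ventral cells. The part of RNA quality was not tested.

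On the ligand side, the epsin Epn2, an adaptor for the endocytosis that pulls on bound receptors, gave 1202 and 1386 in virgin ventral, 1270 and 1133 in 16 dpc dorsal, and 908.2 and 749 in 16 dpc ventral cells. Both 16 dpc ventral arrays were below the other 4. Its log2 fold changes were -0.65 over virgin ventral cells (-1.08 to -0.22, unadjusted p = 0.00921, limma adjusted p = 0.499) and -0.54 over 16 dpc dorsal cells (-0.97 to -0.11, adjusted p = 1). The 3 other kept Epn2 probe sets varied, from -1.50 to -0.004 over virgin ventral cells and from -0.26 to 0.30 over 16 dpc dorsal cells. The related Epn1, present on 4 arrays, had -0.60 (-1.31 to 0.11) and -0.51 (-1.22 to 0.20).

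Among the inhibitors, Nrarp, a feedback inhibitor that Notch itself switches on, gave 4089 and 5897 in virgin ventral, 5452 and 4768 in 16 dpc dorsal, and 3911 and 3476 in 16 dpc ventral cells. The 16 dpc ventral arrays were the lowest 2, with log2 fold changes of -0.41 (-0.89 to 0.07, limma adjusted p = 0.572) and -0.47 (-0.95 to 0.01, adjusted p = 1) over the virgin ventral and 16 dpc dorsal cells, and -0.47 and -0.42 by its second probe set. The ubiquitin ligase Nedd4l had 0.40 (-0.04 to 0.84) and 0.28 (-0.16 to 0.72), but its 3 other kept probe sets ran from -0.84 to 0.45 and from -0.38 to 0.21, so its probe sets disagreed in direction. Of the Deltex ubiquitin ligase genes, Dtx3 had -0.60 over virgin ventral cells (-1.17 to -0.04, unadjusted p = 0.0398, limma adjusted p = 0.552). Dtx4 had -0.37 (-0.94 to 0.20) by its leading probe set and 0.82 by another, present on 4 arrays. Dtx1 was present on the dorsal arrays alone, at 110.5 and 160.5, and absent on the 4 others, at 8.461 to 98.38, and no fold is given.

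In the nuclear complex, Rbpj itself was not among the genes of smallest p, and the corepressors Ctbp2 and Cir1 were. Ctbp2 gave 1253 and 1112 in virgin ventral, 1242 and 1333 in 16 dpc dorsal, and 1745 and 1719 in 16 dpc ventral cells. Both 16 dpc ventral arrays were above the other 4, with log2 fold changes of 0.55 over virgin ventral cells (0.19 to 0.92, unadjusted p = 0.00888, limma adjusted p = 0.499) and 0.43 over 16 dpc dorsal cells (0.06 to 0.79, adjusted p = 1), and 0.35 and 0.32 by its second probe set. Cir1, a corepressor that binds Rbpj, had -0.73 (-1.31 to -0.16) and -0.59 (-1.16 to -0.01), again with the 16 dpc ventral arrays apart from the rest, at 343.2 and 235.6 against 411.4 to 484.1.

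Of 14 kept further genes known to respond to Notch, means over virgin ventral cells were higher for 6 and lower for 8, beside 5901 and 5258 of all genes. Over 16 dpc dorsal cells they were higher for 3 and lower for 11, beside 4850 and 6309. Tslp, a keratinocyte cytokine known to be raised in skin that lacks Notch signalling, gave 93.59 and 84.36 in virgin ventral, 102.1 and 136.7 in 16 dpc dorsal, and 52.01 and 37.84 in 16 dpc ventral cells. The 16 dpc ventral arrays were the lowest, and array 1 of them was called absent, the only one of the 6, so the fold rests on 1 detected array of that group, with a signal 0.499 times that of virgin ventral cells (0.272 to 0.917, unadjusted p = 0.0306, limma adjusted p = 0.545) and 0.376 times that of 16 dpc dorsal cells (0.204 to 0.69, unadjusted p = 0.0066, adjusted p = 1). Id2, an inhibitor of basic helix-loop-helix factors, had 0.52 over 16 dpc dorsal cells (0.11 to 0.92, unadjusted p = 0.0204, adjusted p = 1) and -0.16 by a second probe set, present on 4 arrays. The cyclin gene Ccnd1 had -0.34 over virgin ventral cells (-0.66 to -0.02, unadjusted p = 0.0381, adjusted p = 0.552). Its 2 other kept probe sets had -0.85 and 0.19, so they disagreed in direction. Runx1, named here after its values were seen, gave 321.9 and 461.6, 146.4 and 58.38, and 296.7 and 15.9. It was called absent on the 2 arrays of high actin ratio, whose part was not tested, and no fold is given.

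**Figure D4:**
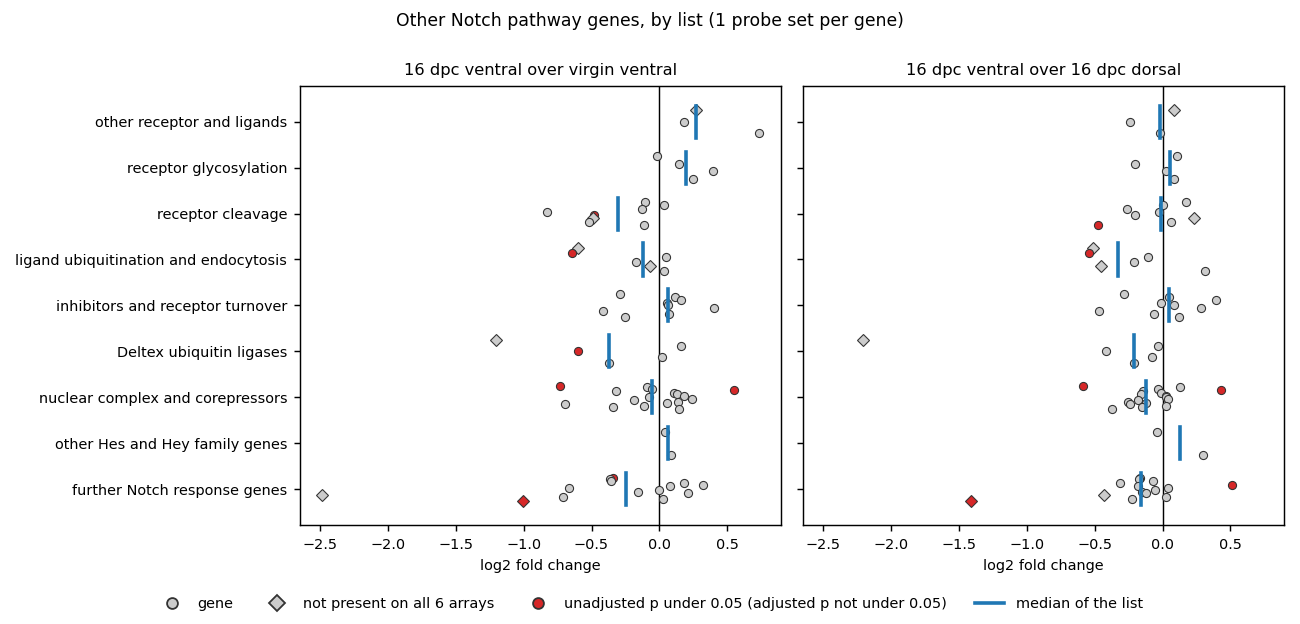
Log2 fold changes (horizontal axis) of 68 further Notch pathway genes in 9 lists, for 16 dpc ventral cells over those of virgin ventral skin and of 16 dpc dorsal skin, 1 point per gene with the list median as a bar. Red points had an unadjusted p under 0.05, 7 in the first and 6 in the second comparison, and none passed the adjusted threshold. Diamonds mark genes not called present on all 6 arrays, such as Dtx1 and Runx1 at the far left, whose positions rest on signals called absent.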

How the data were processed

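Sorted cells were profiled by the authors on Affymetrix mouse 3′ arrays. The deposited files hold, per probe set, a linear signal intensity and a detection call, produced per the submitters' processing notes with Affymetrix Expression Console version 1, and scaled to a trimmed mean of 500 on each array. A genome build was not given in the sources used here. The series' value table repeated these signals to within a relative difference of 5e-06 and was left aside. Scaling to a common mean hides any change in how much RNA a cell holds, and 3′ arrays lose signal far from the 3′ end where RNA is degraded.

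Log2 was taken after raising signals below 1 to 1. Groups came from the sample titles. Annotation named 1 gene for 34945 probe sets, several for 932 and none for 9160, and 34754 matched RefSeq by gene number. Kept were 23017 probe sets with calls of present on both arrays of 1 or more groups. Present signals began at 6.34 to 11.3, and the 2 arrays per group limit the precision. Differences were tested two-sided with limma 3.58.1 (eBayes with trend) in R 4.3.3 on all 6 arrays, with 3 residual and 4.08 prior degrees of freedom and Benjamini-Hochberg adjustment over all kept probe sets at 0.05. Intervals cover 95% and are not adjusted. The fit was tested on simulated data.

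The genes, lists and tests were chosen with earlier results of these data known. Named were all 8 genes, further pathway genes past the threshold and, per list, up to 2 of smallest p in each comparison of 16 dpc ventral cells. Some listed genes are not reported here. Alternatives were an offset of 16, other detection filters, quantile normalization, eBayes without trend, 1 probe set per gene, a replicate block and leaving out each array.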

Additional observations from a re-analysis of the deposited data

How the results depend on the processing

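Limma called 0 Notch probe sets and 0 further pathway genes in each of the 3 comparisons under all 13 alternatives. For the 21 leading log2 fold changes, 264 of 273 values under these alternatives kept their sign and 9 did not, all on leaving out 1 array, and the smallest adjusted p was 0.313. Leaving out 1 array at a time, in 16 dpc ventral over virgin ventral cells, gave -0.27 to 0.36 for Jag2 and -0.037 to 0.093 for Dll1, and -0.40 to -0.04 for Notch1 and -0.59 to -0.08 for Notch2, nearest to 0 without 16 dpc ventral array 2. In 16 dpc ventral over 16 dpc dorsal cells it gave -0.24 to 0.12 for Notch1, -0.20 to 0.30 for Notch2 and -0.27 to 0.22 for Jag2, and in 16 dpc dorsal over virgin ventral cells -0.24 to 0.38 for Jag2. The cause was not tested.

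Same-numbered arrays deviated together between the 16 dpc sites (r = 0.542 across probe sets, which are not independent replicates) but not between virgin ventral and either of them (-0.008 and -0.02), so the numbers were not taken as pairs. With a replicate block 0 Notch probe sets were called, and over all probe sets 3, 6 and 0 were called in the 3 comparisons in place of 0, 1 and 0. With 1 probe set per gene, 22, 9 and 0 of 11159 were called, and none was a Notch gene. In 16 dpc ventral over 16 dpc dorsal cells, calls over all probe sets fell to 0 with presence on all arrays required, without the eBayes trend, and without either virgin ventral or either 16 dpc ventral array. They rose to 3 and 2 without 16 dpc dorsal array 1 or 2, and without the former the other comparisons had 1 each. Hey1 and Notch2 1451889_at lay below detection on every array and allow no statement on direction.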
